A study of Homo sapiens with 6 samples.

Results

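KMS11, an established human multiple myeloma cell line, was compared with RPMI8226 and U266, which are myeloma lines as well. KMS11 contributed 2 of the 6 arrays of the series, and the other lines contributed 4. The arrays were chosen by the cell line named in their labels. Expression was measured on the Affymetrix Human Gene 2.0 ST array, which reads whole transcripts, and the deposited values are on a log2 scale. One array of each line came from cells given a scrambled control oligonucleotide and one from cells given a miR-10a mimic, a synthetic double-stranded RNA that acts as the microRNA. Both were used at 100 nM with the lipid reagent HiPerFect, and RNA was taken 48 h later. All 3 lines were thus transfected, and no untransfected array entered the comparison. Each line is a single culture line, and the labels name no separate cultures, so the tests rest on the gap between the control and mimic arrays of a line and not on a spread between independent cultures.

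Multiple myeloma is a cancer of plasma cells, the antibody-secreting cells that arise from B cells. Its founding lesions often join an oncogene to the immunoglobulin heavy chain locus, and the translocation between chromosomes 4 and 14 places the histone methyltransferase gene NSD2 and the growth factor receptor gene FGFR3 under immunoglobulin enhancers. KMS11 is known as a line with this translocation. FGFR3 is a receptor tyrosine kinase that signals through RAS and the MAP kinases, and NSD2 writes dimethylation on lysine residues of histone H3.

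A gene was called higher or lower in KMS11 when it differed from RPMI8226 and from U266 in the same direction, by at least 1 log2 unit (2-fold) against each, with an adjusted p under 0.05 in both contrasts (limma, Benjamini-Hochberg over 7442 tested genes). By this rule 306 genes were higher (4.11% of those tested) and 193 were lower (2.59%). Fold values below are against the nearer line, that is, whichever of RPMI8226 and U266 differed less from KMS11. The nearer line was RPMI8226 for 167 of the higher genes and 102 of the lower ones. The median called gene was 2.55-fold higher or 2.72-fold lower than in the nearer line. At least 4-fold differences were reached by 60 higher and 53 lower genes, and at least 16-fold differences by 7 and 6. The ranges of KMS11 and the other lines did not overlap for any called gene, which follows largely from the rule, applied to these same values. In 41 of the higher genes both other lines lay under the filter of 4.70 log2 units, and in 91 of the lower genes KMS11 did. With no detection calls in the table, the size of those differences is uncertain.

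**Figure D1:**
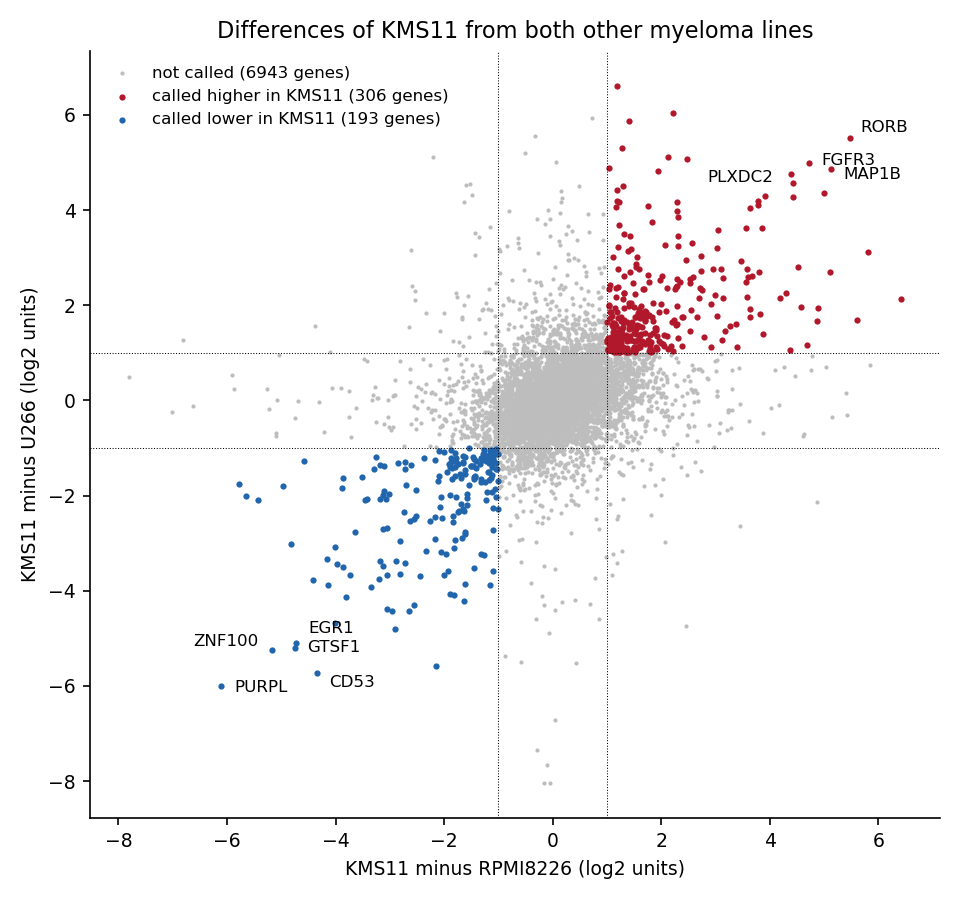
Difference of KMS11 from RPMI8226 (horizontal axis, log2 units) and from U266 (vertical axis, log2 units), 1 point for each of 7442 tested genes. Red points are the 306 genes called higher and blue points the 193 called lower; dotted lines mark a difference of 1 log2 unit, and RORB and PURPL lie far out in the opposite corners.

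KMS11 was no farther from the other lines than these were from each other. At least 2-fold differences separated KMS11 from RPMI8226 in 1523 genes (20.5%) and from U266 in 1366 genes (18.4%), against 1652 genes (22.2%) between RPMI8226 and U266. Over the 7442 tested genes, the correlation was 0.992 to 0.993 within a line and 0.715 to 0.779 between lines. It is a description across genes that share the array design. The KMS11 arrays differed by a median of 0.10 log2 units per gene, and 4 genes differed by 1 unit or more. The effect of the mimic in KMS11 against that in the other lines passed the limma test (Benjamini-Hochberg) for 0 genes. Of the 7442 tested genes, 298 had an unadjusted p under 0.05, and 15 passed when the variance prior followed expression. That fit left fewer residual degrees of freedom than the main one, so the count of 0 does not show that such an effect is absent. Taken treatment by treatment, 260 of the 306 higher genes (85.0%) were 2-fold apart from both lines in the control and in the mimic arrays. The same held for 160 of the 193 lower genes (82.9%). Called genes were picked on the mean of these same arrays, so both shares describe them and test nothing. The array medians of KMS11 were the lowest, at 3.61 and 3.62 log2 units against 3.63 to 3.66 in the other lines. A stricter fit pooled RPMI8226 and U266 as 1 group, so that the distance between them counted as error, and it kept 190 of the higher and 122 of the lower genes. Below, genes that missed 0.05 in that fit are named as lost in the pooled fit. This was looked up for genes named by list, group or rank. It was not looked up for genes named only for a chromosome window, or for microRNA loci other than MIR616.

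The markers of KMS11 all lay above both other lines. FGFR3 read 8.62 in the control and 8.69 in the mimic array of KMS11, 3.93 and 3.95 in RPMI8226, and 3.56 and 3.78 in U266. It was 26.3-fold higher than in the nearer line (difference 4.72 ± 0.22 log2 units, 95% interval half-width). NSD2 read 7.87 and 7.77 in KMS11 against 6.67 and 6.73 in RPMI8226 and 6.76 and 6.73 in U266, so that all 3 lines carried signal and KMS11 stood 2.10-fold higher. RORB, an orphan nuclear receptor of the ROR family known from retina and brain, read 8.73 and 8.37 in KMS11, while the other 4 arrays lay between 3.02 and 3.11. At 44.5-fold (5.47 ± 0.31 log2 units) it had the largest difference among the genes called higher. MAP1B, a microtubule-associated protein of growing axons, read 8.16 and 8.28 against 3.15 and 3.02 in RPMI8226 and 3.46 and 3.25 in U266. PLXDC2, a transmembrane protein with a plexin domain, read 7.75 and 7.78 against 3.50 and 3.25 and against 2.94 and 3.07. MAP1B was thus 29.2-fold and PLXDC2 21.0-fold higher. FGFR3, RORB, MAP1B and PLXDC2 passed the filter on the mean through KMS11, with both other lines below it. The markers were named with these data in view, so their levels describe the line and test nothing.

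To show where these genes start, 120 bases upstream of the RefSeq transcription start (GRCh38.p14) are printed 5′ to 3′ on the gene's strand for 3 of the tested genes farthest above and 3 of those farthest below the other lines, with the dinucleotide CG in capitals, the site of DNA methylation in promoters. The first 3 are higher and the last 3 lower in KMS11. They lie at chr9:74497215-74497334 (plus strand), chr5:72107355-72107474 (plus strand), chr4:1793173-1793292 (plus strand), chr19:21767580-21767699 (minus strand), chr12:54473603-54473722 (minus strand) and chr5:138465359-138465478 (plus strand).
RORB: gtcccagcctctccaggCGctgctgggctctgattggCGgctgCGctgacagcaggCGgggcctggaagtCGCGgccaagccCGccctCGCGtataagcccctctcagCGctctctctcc
MAP1B: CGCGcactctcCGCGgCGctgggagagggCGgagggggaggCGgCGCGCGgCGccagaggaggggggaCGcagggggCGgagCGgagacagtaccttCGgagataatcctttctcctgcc
FGFR3: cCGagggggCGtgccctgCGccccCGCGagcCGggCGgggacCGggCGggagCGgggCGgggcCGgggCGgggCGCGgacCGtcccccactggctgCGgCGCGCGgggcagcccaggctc
ZNF100: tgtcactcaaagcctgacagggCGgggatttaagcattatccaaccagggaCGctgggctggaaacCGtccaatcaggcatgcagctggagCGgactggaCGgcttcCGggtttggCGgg
GTSF1: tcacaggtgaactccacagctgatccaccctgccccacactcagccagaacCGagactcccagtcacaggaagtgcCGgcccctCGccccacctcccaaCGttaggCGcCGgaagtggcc
EGR1: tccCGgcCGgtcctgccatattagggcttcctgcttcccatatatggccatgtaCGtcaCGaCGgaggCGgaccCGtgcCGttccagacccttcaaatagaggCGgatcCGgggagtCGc
The shown stretch of FGFR3 holds 20 CG and that of MAP1B 15, against 7 in ZNF100 and 6 in GTSF1. RORB holds 10 and EGR1 11, so the directions are not set apart by this count. In the whole window of 300 bases around the start, the median number of CG was 25 for the 255 higher genes with a promoter in the table, 23 for the 158 lower genes and 27 for all 5938 tested genes matched. The motif TGANTCA of AP-1, the JUN and FOS dimer, searched on both strands, was in 3.14% of the higher, 3.16% of the lower and 3.87% of all promoters. The motif GCGNGGGCG of EGR1 was in 19.2%, 12% and 15.7%. A match is a string of letters and no evidence of binding.

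Among the 12 tested protein-coding genes farthest above the other lines, several act at the cell surface or on the surrounding matrix. GPC6, a glypican that carries heparan sulfate chains, read 8.16 and 8.05 in KMS11 against 3.59 to 3.88 in the other 4 arrays (19.3-fold). SULF1, which removes sulfate groups from such chains outside the cell, read 7.45 and 7.29 against 3.16 to 3.68 (13.7-fold). ITM2A, a membrane protein known from cartilage and T cells, read 7.70 and 7.88 against 3.39 to 3.92 (15.1-fold). The tetraspanin TSPAN33, known from activated B cells, was 12.3-fold higher. Among intracellular proteins, the zinc finger gene ZNF532 read 8.01 and 7.98 against 3.30 to 3.70 (21.5-fold). ZC3H12B, a relative of the RNase regnase-1, read 8.57 and 7.99 against 3.01 to 4.00 (20.4-fold). ENC1, an actin-binding kelch protein, was 13.7-fold and CRIP1, a LIM domain protein, 12.5-fold higher. The KMS11 arrays were apart by 0.58 log2 units for ZC3H12B and by less than 0.4 for the other genes of this group.

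Among the 12 tested protein-coding genes farthest below, EGR1, an immediate-early transcription factor induced by MAP kinase signalling, read 3.76 and 3.87 in KMS11, 8.51 and 8.56 in RPMI8226, and 8.95 and 8.90 in U266. It was 26.4-fold lower than in the nearer line (-4.72 ± 0.21 log2 units, adjusted p = 1.6e-06). GTSF1, a cofactor of the piRNA pathway, read 2.02 and 2.13 against 6.81 and 6.85 in RPMI8226 and 7.29 and 7.27 in U266 (26.9-fold lower). LIN28B, an RNA-binding protein that blocks the maturation of let-7 microRNAs, read 2.89 and 2.95 against 6.67 to 7.12 (13.9-fold lower). NCR3LG1, the ligand B7-H6 of a natural killer cell receptor, read 4.01 and 4.04 against 7.60 to 7.81 (12.8-fold lower). The other 8 were 3 leukocyte genes, CD53, ICAM3 and LCP1, and 5 zinc finger genes, ZNF100, ZNF431, ZNF93, ZNF266 and ZNF680, described with their groups below. The 24 genes of both groups kept their call in the pooled fit. Without the KMS11 control array the difference of RORB was 5.27 log2 units, and without the KMS11 mimic array 5.68. These genes were picked for the widest differences, so their hold describes them and supports nothing.

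**Figure D2:**
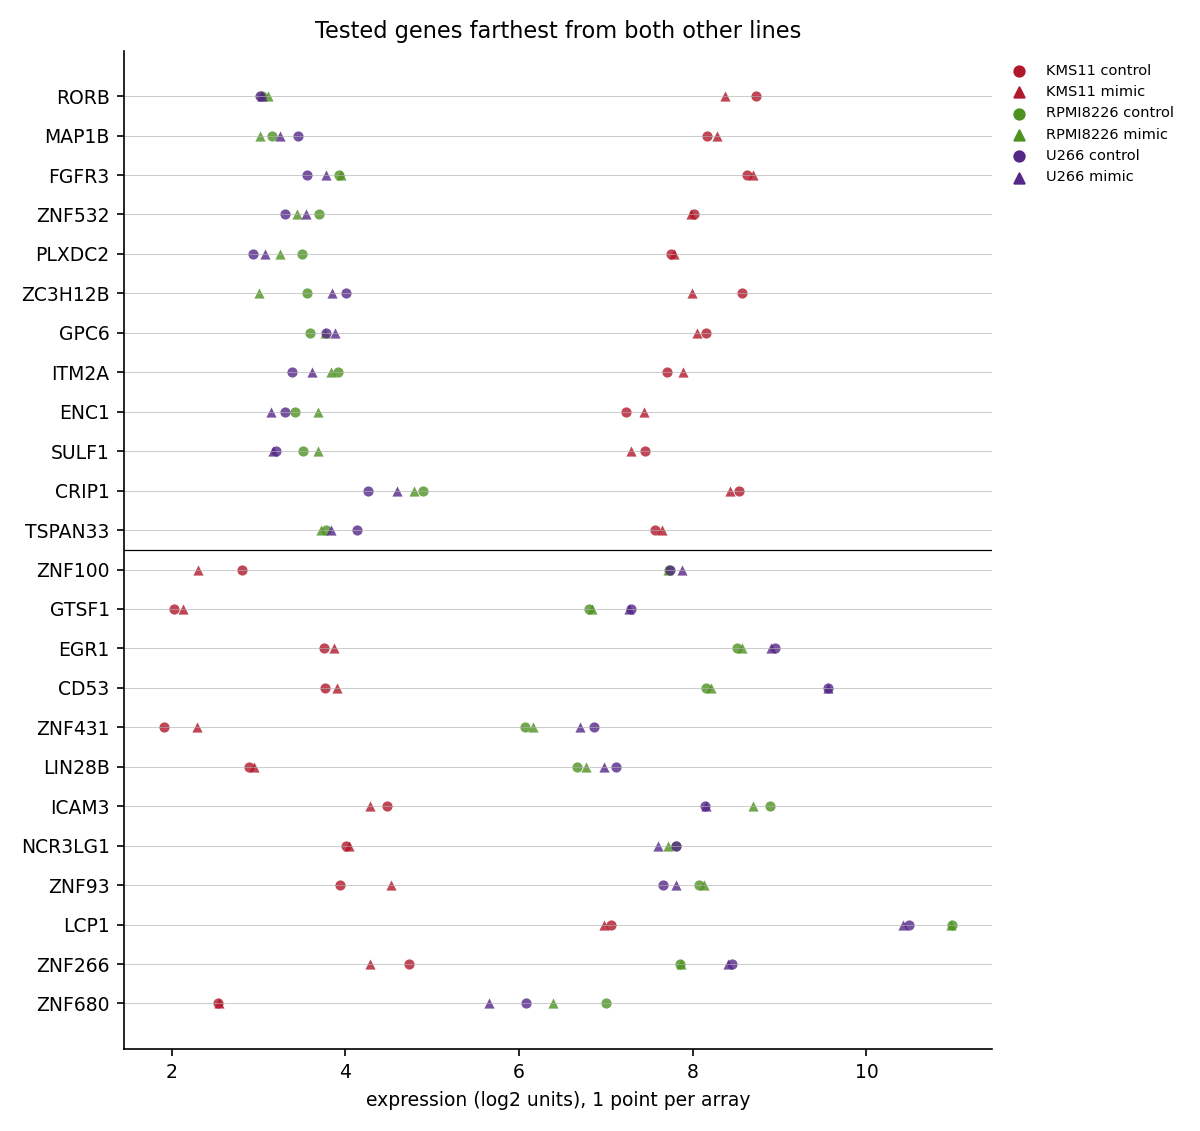
Expression in each of the 6 arrays (log2 units, horizontal axis) for the 12 protein-coding genes farthest above and the 12 farthest below both other lines among tested genes, split by the horizontal line. Colour marks the line and shape the treatment; RORB reads 8.73 and 8.37 in KMS11 and 3.02 to 3.11 elsewhere, and in each of the 24 genes the KMS11 points stand apart from the other 4.

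The receptor's own pathway was examined next. Of 7 tested genes of FGF receptor signalling, FGFR3 was higher and GAB1, a docking protein of receptor kinases, was lower (2.49-fold, 5.41 and 5.17 against 6.52 to 7.02). FGF2, a ligand, read 8.79 and 8.86 in KMS11 and 8.16 and 8.21 in U266, with 3.90 and 4.23 in RPMI8226, and was not called. Of 19 tested genes in the list of MAP kinase output, 1 was higher (5.26%, near the 4.11% of all tested genes) and 4 were lower (21.1%, against 2.59%), with a median difference of -0.77 log2 units from the mean of the other lines, against 0.04 over all tested genes. JUN, the AP-1 subunit, was higher at 8.37 and 8.32 against 5.04 to 6.82, whereas its relative JUNB was 2.58-fold lower, against 8.44 to 8.65 in the other 4 arrays. MAP2K1, the kinase MEK1, was 2.05-fold lower, and fell just short of 2-fold against RPMI8226 once the array medians were aligned (-0.99 log2 units). CCND1, cyclin D1, read 6.13 and 6.10 in KMS11, 7.22 and 7.33 in RPMI8226 and 9.98 and 10.00 in U266. The feedback phosphatase DUSP6 read 7.77 and 7.62 in KMS11, between RPMI8226 at 9.02 and 9.08 and U266 at 5.99. JUN and CCND1 were lost in the pooled fit.

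Of 25 tested genes of the NSD family and chromatin modifiers, NSD2, DNMT3B and KDM6A were higher, against 4.11% of all tested genes, and none was lower (median 0.42). DNMT3B, a de novo DNA methyltransferase, read 7.16 and 7.45 against 4.09 to 5.09 (4.65-fold). KDM6A, which removes methyl groups from lysine 27 of histone H3, read 8.02 and 7.96 in KMS11, 6.95 and 6.72 in U266 and 3.04 and 3.58 in RPMI8226. Its difference from U266 fell to 0.92 log2 units without the U266 mimic array, and it was lost in the pooled fit. The NSD2 relatives NSD1 and NSD3 were not called. Of 8 tested genes recalled from signatures of this translocation and of MAF, FGFR3, NSD2 and the desmosomal cadherin DSG2 were higher, and the chemokine receptor CCR1 was lower. MAF itself, a transcription factor, read 8.96 and 8.91 in KMS11, between RPMI8226 at 10.57 and 10.56 and U266 at 4.57 and 4.96. Of 16 genes of cell cycle entry, the kinases CDK2 (9.65 and 9.71 against 8.02 to 8.25) and CDK6 (9.68 and 9.56 against 5.82 to 8.51) were higher and CCND1 was lower. The shares in this list were 12.5% higher and 6.25% lower, against 4.11% and 2.59% of all tested genes. None of the 28 tested genes of mitosis and DNA replication was called, with a median of 0.38. DSG2, CCR1 and CDK6 were lost in the pooled fit.

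MYC was not called, because its lines were ordered with KMS11 in the middle. It read 9.14 and 9.25 in KMS11, 10.83 and 10.75 in RPMI8226 and 4.92 and 4.43 in U266. Of 13 genes of its network, MXI1, a MAX partner that opposes MYC, was higher (6.81 and 7.01 against 4.83 to 5.55). None of 13 tested p53 genes was called. Of 18 apoptosis regulators, BCL2L1, which encodes the survival protein BCL-XL, was lower at 7.70 and 7.61 against 8.84 to 9.48 (2.37-fold).

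Of 12 tested plasma cell genes, 1 was lower (8.33%) and 0 higher; a gene with KMS11 between the other lines, or near one of them, is not called by the rule. The transcription factors IRF4 (10.83 and 10.89 in KMS11, 10.26 to 10.55 elsewhere) and XBP1 (9.65 in both KMS11 arrays, 9.34 to 9.55 elsewhere) lay within 1 log2 unit of both lines. SDC1, the plasma cell proteoglycan syndecan-1, was lower, at 5.52 and 5.72 in KMS11, 7.30 and 7.16 in RPMI8226 and 9.49 and 9.48 in U266. Of 12 tested antigens of the myeloma surface, 0 were higher and 4 lower (33.3%), and the median was -1.37. CD86, a costimulatory ligand of T cells, read 3.67 and 3.76 against 6.87 to 7.51 (9.14-fold lower). CD70, a ligand of the TNF family, was 4.17-fold lower, and ICAM1, an adhesion ligand, 2.30-fold lower (7.84 in both KMS11 arrays). CD38 was low in KMS11 at 4.88 and 4.92 and in U266 at 4.11 and 3.80, but read 9.99 and 9.90 in RPMI8226. SDC1, CD70 and ICAM1 were lost in the pooled fit.

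Of 9 tested B cell genes, BTK, the kinase downstream of the B cell receptor, was lower (3.79 and 3.90 against 5.44 to 7.47), and it was lost in the pooled fit. Few genes of other blood and stromal cells were called. Of 7 tested T and NK cell genes RUNX3 was higher, and none of 2 myeloid, 1 stromal or endothelial and 3 erythroid or megakaryocyte genes was called. Over every named member of these lists, the median level in KMS11 was 3.09 for 13 myeloid, 3.16 for 9 stromal and 3.86 for 9 erythroid genes. The myeloid marker CD14 read 2.51 and 2.38.

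A wider group of leukocyte genes was drawn up after the values were seen, and its counts are a description. Of 30 tested genes for surface molecules, adaptors and cytoskeletal proteins of leukocytes, 14 were lower (46.7%, against 2.59% of all tested genes). In this group 1 was higher, and the median was -2.17. The lower genes include CD86, CD70 and BTK, already counted in the lists above. CD53, a tetraspanin of leukocytes, read 3.76 and 3.91 in KMS11, 8.16 and 8.21 in RPMI8226 and 9.55 and 9.56 in U266 (20.4-fold lower). ICAM3, an adhesion molecule of resting leukocytes, read 4.48 and 4.28 against 8.14 to 8.89 (13.6-fold lower). LCP1, the actin-bundling protein L-plastin, kept a clear signal in KMS11 at 7.05 and 6.98, yet stood 10.8-fold under the nearer line. KLHL6, a ubiquitin ligase adaptor of B cells, was 6.27-fold lower and SH2D2A, a T cell adaptor, 5.39-fold lower. NCKAP1L, CSK, DAPP1, IRAG2, TAGAP and VAMP8 were lower by 2.42-fold to 4.23-fold. LAT, an adaptor best known from T cells, went the other way at 8.50 and 8.60 against 5.91 to 6.69 (4.02-fold higher). CD70, BTK, KLHL6, NCKAP1L, CSK, DAPP1, IRAG2 and VAMP8 were lost in the pooled fit.

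Immune signalling lists held 0 to 2 calls each. Among 20 interferon-stimulated genes, BST2, the virus-tethering protein tetherin, was lower (6.11 and 6.22 against 7.67 to 8.24). ERAP2, a peptidase that trims antigenic peptides, was the call among 7 genes of MHC class I, at 5.47 and 4.81 against 6.44 to 7.09. Neither of 2 MHC class II genes was called. Of 18 NF-kB genes, the coactivator BCL3 was higher (2.19-fold) and ICAM1 lower. Of 14 genes of IL6 and JAK-STAT signalling, IL6R, the receptor of a myeloma growth factor, was lower at 6.43 and 5.88 in KMS11, 7.94 and 8.02 in RPMI8226 and 10.21 and 10.29 in U266. Of 13 genes of Toll-like receptors and the inflammasome, the adaptor PYCARD was higher (5.59-fold) and the kinase IRAK2 lower (2.43-fold). CCR1, at 4.84 and 4.90 against 6.87 to 8.30, was the call among 12 chemokine genes, whose median was -0.94. ERAP2, IL6R, PYCARD and IRAK2 were lost in the pooled fit.

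**Figure D3:**
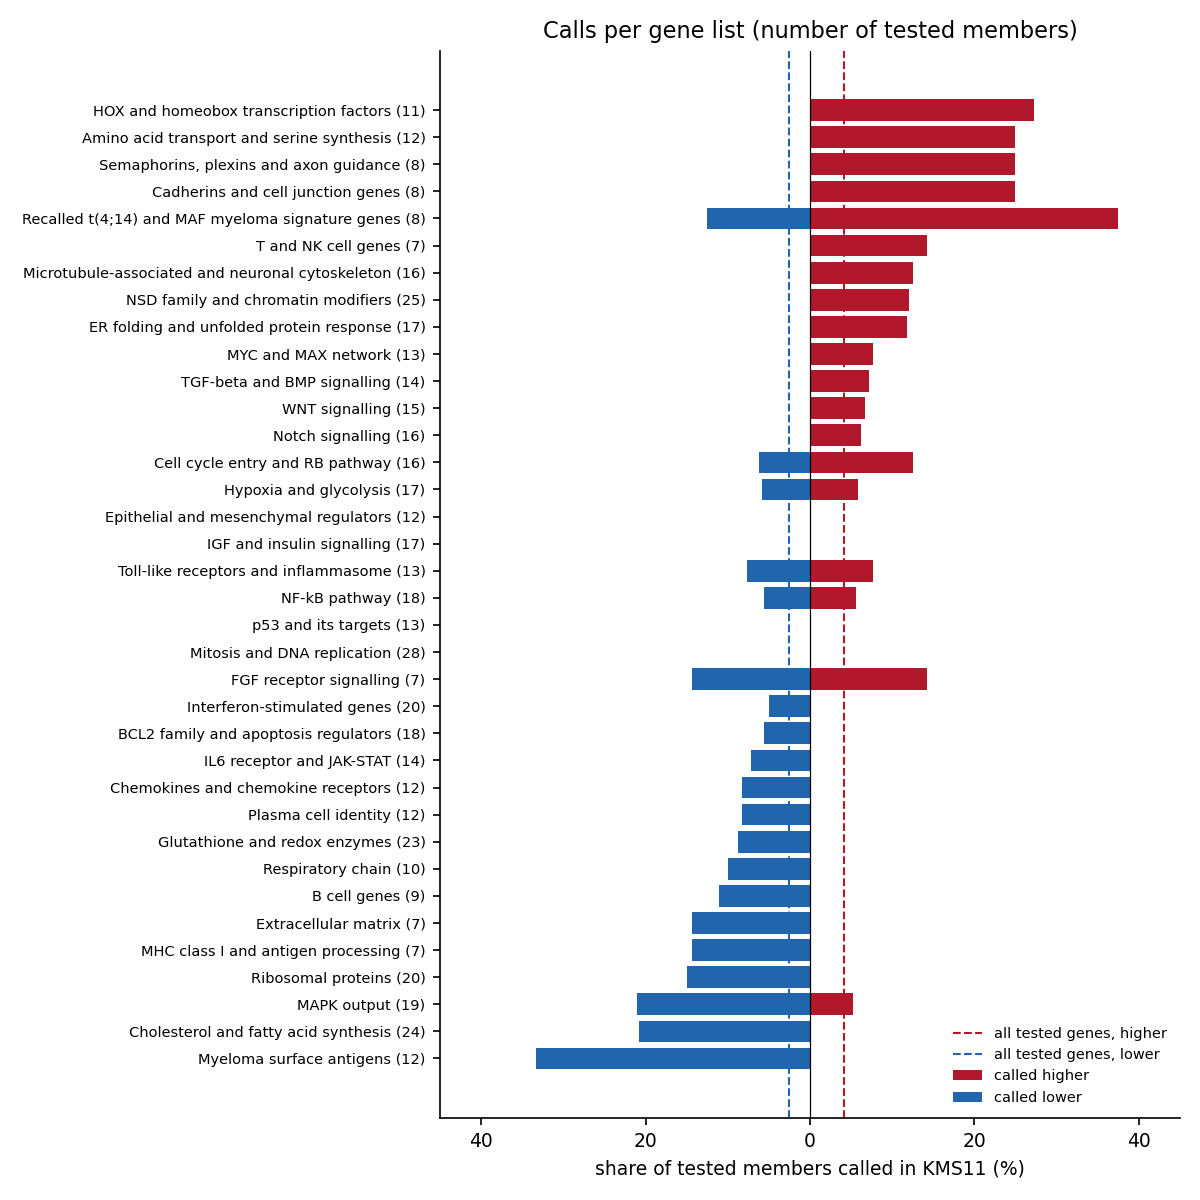
Share of the tested members of each gene list called higher (red, to the right) or lower (blue, to the left) in KMS11, in percent, for the reported lists with 7 or more tested members, whose number is in brackets. Dashed lines mark 4.11% higher and 2.59% lower over all tested genes; myeloma surface antigens reach 33.3% lower, and homeobox factors 27.3% higher.

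Of 11 tested homeobox genes, MEIS1, SIX4 and PBX3 were higher (27.3%, against 4.11% of all tested genes) and none was lower (median 0.89). PBX3, a partner of HOX proteins, read 7.59 and 7.40 against 3.59 to 4.87 (6.52-fold). SIX4 fell under the limit against RPMI8226 without the RPMI8226 control array (0.94 log2 units). Of 5 tested nuclear receptors, RORB and the oestrogen receptor ESR1 (6.21 and 5.67 against 4.22 to 4.79) were higher. A group of RUNX, ETS, SOX and KLF factors, chosen after the values were seen, had 8 of 26 tested members higher (30.8%), 0 lower and a median of 0.65. RUNX2, the regulator of bone formation, read 8.53 and 8.32 in KMS11, 5.45 and 5.15 in RPMI8226 and 5.80 and 5.90 in U266 (5.97-fold). KLF7 was 5.50-fold, SOX4 4.82-fold, ETS1 4.44-fold, RUNX3 2.76-fold, ETV3 2.36-fold and KLF9 2.14-fold higher. SOX9 stood at the edge of the rule at 1.01 log2 units, just inside, and fell to 0.89 without the KMS11 control array and to 0.90 without the RPMI8226 mimic array. SPIN1 was just outside at 0.997, and among lower genes NOP16 and HSPA1B lay on either side of the limit. MEIS1, SIX4, ETS1 and KLF9 were lost in the pooled fit.

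Calls among genes of neurons and junctions were all higher, the matrix list held a lower call, and the heparan sulfate group had calls in both directions. Of 16 tested genes of microtubules and the neuronal cytoskeleton, MAP1B and DPYSL3, a collapsin response mediator of axon growth, were higher, the latter 6.82-fold at 7.26 and 7.27. Of 8 genes of axon guidance, PLXDC2 and the semaphorin receptor PLXNA2 were higher. Of 8 cadherin and junction genes, NECTIN3, an adhesion molecule of adherens junctions, read 6.95 and 6.28 against 4.04 to 4.56 and was higher with DSG2. TIMP1, an inhibitor of matrix metalloproteinases, was lower among 7 matrix genes (3.92 and 4.38 against 5.90 to 8.06). None of 5 integrins was called. A group of heparan sulfate proteoglycans, their enzymes and ligands, chosen after the values were seen, had 4 of 16 tested members higher and 2 lower. These were 25% and 12.5%, against 4.11% and 2.59% of all tested genes. SDC4, syndecan-4, was higher at 8.45 and 8.76 against at most 6.03, the reverse of SDC1. HGF, a growth factor that binds heparan sulfate, read 7.92 and 8.04 in KMS11, 6.01 and 6.04 in RPMI8226 and 2.94 and 3.38 in U266. EXTL2, a glycosyltransferase of this pathway, was 3.10-fold lower. PLXNA2, TIMP1 and HGF were lost in the pooled fit.

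The WNT, Notch and TGF-beta lists of developmental signalling held 1 call each, 6.25% to 7.14% of their tested genes. These shares were near the 4.11% called higher over all tested genes. ROR1, a WNT5A receptor, was higher among 15 WNT genes (7.38 and 7.34 against 2.89 to 5.08). HES6, a transcription factor related to Notch targets, was higher among 16 Notch genes (2.12-fold), and fell to 0.91 log2 units without the KMS11 control array and to 0.86 without the U266 control array. SMAD7, an inhibitor of TGF-beta receptors, was higher among 14 genes of TGF-beta and BMP signalling (2.27-fold), a list whose median was 0.73. None of 17 genes of IGF and insulin signalling, 12 epithelial and mesenchymal regulators, 5 ABC transporters, 2 ion channels or 3 cancer-testis antigens was called. ROR1 and SMAD7 were lost in the pooled fit.

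Calls among lipid synthesis genes were lower and those among amino acid genes higher. Of 24 tested genes of cholesterol and fatty acid synthesis, 5 were lower (20.8%), 0 were higher and the median was -0.56. FADS1, a fatty acid desaturase, read 5.56 and 5.71 against 7.24 to 7.53 (3.12-fold lower). DHCR7, which catalyses the last step of cholesterol synthesis, read 6.22 and 6.49 against 7.96 to 8.10 (3.09-fold lower). INSIG1, which retains the sterol sensor in the endoplasmic reticulum, was 2.19-fold lower, and the desaturases FADS2 and SCD 2.31-fold and 2.16-fold. FADS2 came to -0.94 log2 units against U266 without the KMS11 mimic array, as did SCD when its probe sets were averaged. SREBF1, a transcription factor of these genes, was not called, at 6.66 and 6.54 in KMS11 between 8.37 and 8.36 in RPMI8226 and 4.42 and 4.41 in U266. Of 12 genes of amino acid supply, PSPH, CTH and ATF5 were higher (25%, against 4.11% of all tested genes), with a median of 0.73. CTH, which makes cysteine from cystathionine, read 8.76 and 8.63 against 5.11 to 6.24 (5.62-fold), and PSPH, the last enzyme of serine synthesis, was 2.41-fold higher. FADS2, SCD and ATF5 were lost in the pooled fit.

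Among 17 genes of protein folding and its stress response, ATF6, a sensor of the endoplasmic reticulum, was higher (10.26 and 10.24 against 8.88 to 9.13). DDIT3, the stress factor CHOP, was higher as well at 7.95 and 7.85 against 4.88 to 6.48. Of 17 genes of hypoxia and glycolysis, MXI1 was higher and BNIP3, a mitophagy receptor, lower (4.19 and 4.14 against 5.97 to 8.24). COX5A, a subunit of cytochrome c oxidase, was 2.72-fold lower among 10 respiratory chain genes. GPX1, a peroxidase that uses glutathione, and PRDX2, a peroxiredoxin, were 3.01-fold and 2.62-fold lower among 23 redox genes. Of 20 ribosomal protein genes, RPL14, RPL32 and RPS27L were lower, and the median was -0.47. RPS27L fell to -0.85 log2 units against U266 without the U266 control array and to -0.97 under quantile normalization. Ribosomal proteins have many processed copies, and signal of the copies cannot be told apart from that of the genes. DDIT3 and BNIP3 were lost in the pooled fit. The proteasome list had no member named on the array.

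Zinc finger genes of the ZNF series, many of which encode DNA-binding repressors, were a large group among the lower genes. Of those tested, 23 were lower (8.65%) and 10 higher (3.76%). On chromosome 19, where they lie in clusters, 19 of 120 were lower (15.8%) and 0 higher, while on other chromosomes 4 of 146 were lower and 10 higher. The other 456 tested genes of chromosome 19 had 19 lower (4.17%) and 14 higher. ZNF100 read 2.81 and 2.30 in KMS11, 7.73 and 7.72 in RPMI8226 and 7.74 and 7.87 in U266, a 36.0-fold difference (-5.17 ± 0.39 log2 units, adjusted p = 5.4e-06). ZNF431 (1.91 and 2.29 against 6.06 to 6.86) was 16.1-fold, ZNF93 11.3-fold and ZNF266 10.2-fold lower. Of the genes outside chromosome 19, ZNF680, ZNF727 and ZNF736 lie on chromosome 7 and ZNF883 on chromosome 9, and ZNF680 was 10.0-fold lower. Along chromosome 19, the window of 25 neighbouring tested genes with the most lower calls was picked after the calls were known. It held 8, namely ZNF93, ZNF90, ZNF486, ZNF85, ZNF431, ZNF100, ZNF43 and ZNF681. ZNF493, ZNF91, ZNF737 and ZNF257 were at least 4-fold lower too, but their means lay under the filter; the fit without a filter called them lower. The promoter windows of the 18 lower genes of chromosome 19 with a match held a median of 15 CG, against 22 in the 93 not called.

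**Figure D4:**
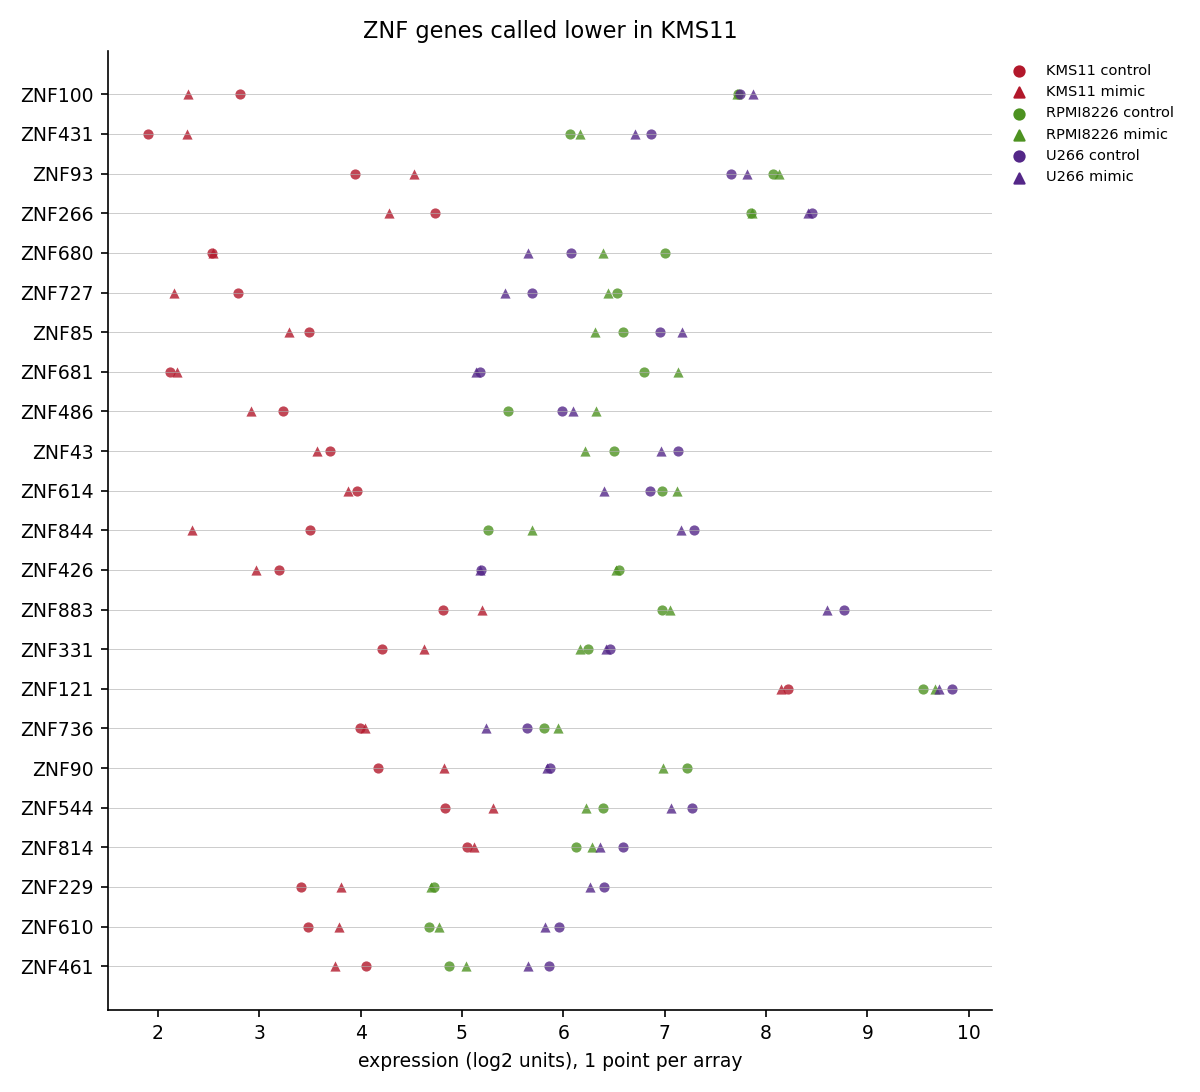
Expression in each of the 6 arrays (log2 units, horizontal axis) of the 23 ZNF genes called lower in KMS11, ordered by their difference from the nearer line. The KMS11 points lie to the left of the other 4 in each gene, from ZNF100 (36.0-fold) to ZNF461 (2.08-fold).

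Of these 23 genes, ZNF229, ZNF426, ZNF461, ZNF544, ZNF610, ZNF681, ZNF844, ZNF883 and ZNF90 were lost in the pooled fit. Without the KMS11 control array the smaller difference came to -0.86 for ZNF229, -0.90 for ZNF544, -0.93 for ZNF610 and -0.97 for ZNF90. ZNF461 came to -0.91 without the KMS11 mimic array and to -0.84 without the RPMI8226 mimic array, and ZNF814 to just under 1 log2 unit without the latter. The members are similar in sequence, and signal shared between neighbours was not tested.

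By chromosome, as the RefSeq table (GRCh38.p14) places the genes, higher genes were most frequent on chromosome 4, with 33 of 255 tested genes (12.9%) and a median difference of 0.42 log2 units. Chromosome 12 followed with 34 of 380 (8.95%) at a median of 0.07, then chromosome 18 with 7.21%, chromosome 10 with 7.04% and the X chromosome with 6.61%. On each chromosome, the window of 25 neighbouring tested genes with the most calls was picked after the calls were known. Its count is thus a description. On chromosome 12 this window held 9 higher genes: ESPL1, SP1, PRR13, PCBP2, CALCOCO1, SMUG1, GDF11, SARNP and CDK2. In the window picked on chromosome 4, 8 of 25 neighbours were higher: OCIAD2, CHIC2, EXOC1, CEP135, REST, CENPC, RUFY3 and DCK. That stretch holds neither FGFR3 nor NSD2. REST, the repressor of neuronal genes, read 8.31 and 8.23 against 6.39 to 6.76 there. Lower genes were most frequent on chromosome 19 (6.60%), chromosome 15 (14 of 250, 5.60%), chromosome 21 (4 of 75, 5.33%) and chromosome 3 (20 of 391, 5.12%). The median difference on chromosome 3 was -0.25. The copy number of these regions was not measured here.

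**Figure D5:**
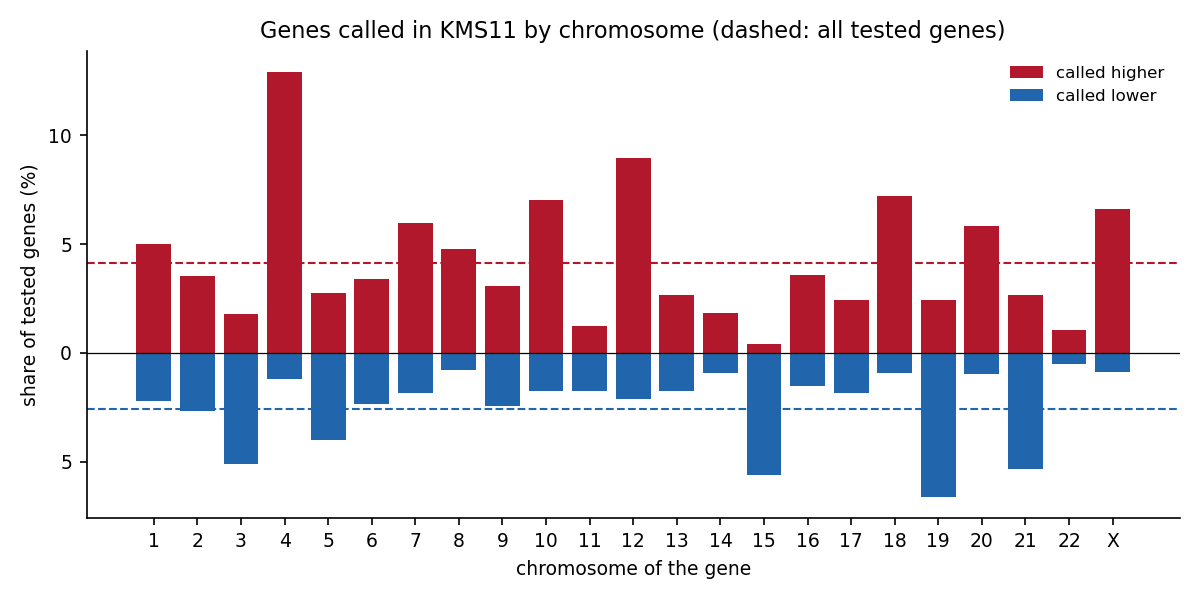
Share of the tested genes of each chromosome called higher (red, upward) or lower (blue, downward) in KMS11, in percent. Dashed lines mark 4.11% and 2.59% over all tested genes; chromosome 4 reaches 12.9% higher and chromosome 19 reaches 6.60% lower.

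Among non-coding genes, the difference of PURPL, a long non-coding RNA known as a p53 target, was the widest of all called genes. It read 2.68 and 2.63 in KMS11, 8.81 and 8.70 in RPMI8226 and 8.70 and 8.59 in U266, a 63.6-fold lower level (-5.99 ± 0.19 log2 units, adjusted p = 1.3e-06). ST8SIA6-AS1 was 14.8-fold and LINC00470 7.52-fold lower. Of 263 tested lncRNA genes, 14 were lower (5.32%) and 2 higher (0.76%). The pseudogene LGALS17A read 8.27 and 8.03 in KMS11, 6.20 and 6.22 in U266 and 3.31 and 3.22 in RPMI8226, and the small Cajal body RNA SCARNA22 was 3.61-fold higher. Of 8 tested SNAR genes, which encode near-identical short RNAs, SNAR-B1, SNAR-C1, SNAR-D and SNAR-H were lower, by 3.06-fold to 5.48-fold, and their copies cannot be told apart with confidence. Both tested vault RNA genes, VTRNA1-3 and VTRNA2-1, were lower by 3.11-fold and 3.31-fold. LGALS17A, MIR616, LINC00470, SNAR-D and VTRNA1-3 were lost in the pooled fit.

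Of 199 tested microRNA genes, 4 were higher (2.01%) and 2 lower (1.01%), under the 4.11% and 2.59% of all tested genes. The array reads transcripts of the locus and not the mature microRNA, so the mature sequences (RefSeq, GRCh38.p14) show what each locus can give, 5′ to 3′ with the seed, bases 2 to 8, in capitals. The first 3 belong to lower loci and the other 6 to higher loci.
hsa-miR-146a-5p: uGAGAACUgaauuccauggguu
hsa-miR-146a-3p: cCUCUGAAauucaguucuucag
hsa-miR-1299: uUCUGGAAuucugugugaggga
hsa-miR-181b-5p: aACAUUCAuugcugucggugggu
hsa-miR-181b-3p: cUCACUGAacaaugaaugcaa
hsa-miR-3916: aAGAGGAAgaaauggcugguucucag
hsa-miR-3939: uACGCGCAgaccacaggauguc
hsa-miR-616-5p: aCUCAAAAcccuucagugacuu
hsa-miR-616-3p: aGUCAUUGgaggguuugagcag
No seed was shared between these loci. MIR146A, whose product restrains Toll-like receptor signalling, read 4.57 and 4.65 in KMS11 against 5.87 to 6.37, and MIR1299 read 6.64 and 6.38 against 8.38 to 9.13. MIR181B1, a locus known from lymphocyte development, read 8.10 and 7.94 against 5.92 to 6.83. MIR3916 (8.58 and 8.44 against 6.80 to 7.25) and MIR3939 (6.89 and 6.55 against 5.21 to 5.64) were higher too. MIR616, a locus within the gene DDIT3, read 6.64 and 5.99 against 3.58 to 4.88, and DDIT3 was higher as well.

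Some genes with means under the filter lay far from the other lines. In 52 protein-coding genes under the filter KMS11 was at least 4-fold above both lines, and in 4 at least 4-fold below. The filter acts on the mean of all arrays. A gene high only in KMS11 thus falls under it more easily than a gene high in both other lines. The split therefore shows no preferred direction of KMS11. CDC42BPA, a kinase of the actomyosin cytoskeleton, read 8.50 and 8.39 in KMS11, 2.67 and 2.65 in RPMI8226 and 2.60 and 2.84 in U266. The unconventional myosin MYO3A read 7.54 and 7.29 against 2.44 to 2.56. SOX2, a transcription factor of stem cells, read 7.05 and 6.87 against 3.31 to 3.60. SESN3, a sestrin of the stress response, and SDC2, syndecan-2, showed the same order, at 7.18 and 6.95 and at 6.06 and 6.67 in KMS11. In the alternative fit without a filter, all 52 and all 4 were called (limma, Benjamini-Hochberg), CDC42BPA with adjusted p = 3.6e-06. These genes were picked by that same difference, so the count describes them and supports nothing.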

How the data were processed

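Values on the log2 scale were deposited by the authors for 6 Affymetrix Human Gene 2.0 ST arrays, with 53617 probe sets, and the submitters' processing notes name Affymetrix Expression Console 1.3.0. How background and arrays were normalized, and the build used, is not given in the sources used here, so scale and centring between arrays stay unknown. The table holds no detection calls, so low values are uncertain, and the number of arrays limits the precision. The platform annotation gave 1 symbol for 16098 probe sets, several for 0 and none for 37519. These were 14884 genes, and 779 of them had more than 1 probe set, of which the brightest on average was kept. Testing was limited to genes averaging 4.70 log2 units or more, the median of named genes.

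Groups were the cell lines in the labels. In limma 3.58.1 (R 4.3.3, lmFit and eBayes), cell line and treatment were fitted on 6 arrays, which left 2 residual and 3.82 prior degrees of freedom, and KMS11 was compared with each other line. P-values were two-sided and adjusted by the Benjamini-Hochberg method, and the printed adjusted p is the larger of both contrasts. The fit was run on simulated data to check the code. The simulated lines lay closer together than these, so that check says nothing about the calls made here. The text names the 12 protein-coding genes with the widest difference from the nearer line in each direction, the markers, the non-coding genes by the same measure and called members of 47 lists of 1420 symbols, of which 526 were tested. The result of 1 list is not reported here. Members and lists were chosen with earlier results of these data known. Alternatives were the pooled fit, filters, scalings, probe set rules, minimum differences and leaving out each array.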

Additional observations from a re-analysis of the deposited data

How the results depend on the processing

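Counts of genes higher and lower in KMS11 (306 and 193) moved to 190 and 122 when RPMI8226 and U266 were pooled, to 145 and 90 among the upper 25% of named genes, to 1432 and 1070 without a minimum difference and to 60 and 53 at 2 log2 units. Without a filter 467 genes were higher and 215 lower. Leaving out each array gave 295 to 324 higher and 188 to 205 lower genes. No treatment term, the trend, aligned medians, quantile normalization and averaged probe sets kept the counts within 1.5 times. The mimic effect specific to KMS11 passed for 0 genes, and for 15 with the trend; the cause was not tested. Over 16 settings, the 30 most distant genes gave 458 values, of which 452 kept the call, 6 lost it and 0 reversed. The 6 were LGALS17A and MIR616 (pooled fit and 2 log2 units), LINC00470 (pooled fit) and SCARNA22 (2 log2 units). Genes under the filter of a setting gave no value there, such as RORB, MAP1B and FGFR3 among the upper 25%. ENC1 was likewise not tested under quantile normalization. The 30 genes were picked for wide differences, and a looser filter or no minimum difference could hardly remove a call, so these counts describe them. For single genes, the pooled fit, no treatment term, the trend, the upper 25% and both minimum differences were added after the data were seen. Of 128 called genes named by list or family, 48 were lost in the pooled fit, at adjusted p from 0.054 to 0.37 in limma, and 12 when 1 array was left out. Treatment as a term matched control with control and mimic with mimic across lines, which is the replicate block of this design; without it the counts were 306 and 193 as well.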
